A study of Mus musculus with 9 samples.

Results

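The genes described here are 39 genes that macrophages and monocytes use, followed in primary mouse pro-B cell cultures. They were chosen by symbol, as a list of lysozymes, growth factor receptors, surface proteins, Fc receptors and their adaptors, pathogen and scavenger receptors, complement C1q chains, NADPH oxidase subunits and secreted proteins. All 39 had a row among the 23279 gene rows of the deposited tables, and all 39 were among the 10878 rows tested, whose mean raw FPKM over the 9 libraries was at least 1. FPKM scales the fragments of a gene to its transcript length and to the fragments mapped in the library. The cultures came from whole bone marrow of mice aged 6 to 8 weeks, grown for 7 days in methylcellulose with interleukin-7, a cytokine that B cell progenitors need. Colonies were pooled, equal cell numbers went into each RNA preparation, and synthetic ERCC spike-in RNA was added before polyadenylated RNA was sequenced. The 3 groups had 3 libraries each. Ts1Rhr mice carry an extra copy of the chromosome segment from Cbr1 to Fam3b, which includes Hmgn1, and were on an FVB × C57BL/6 F1 background. Hmgn1-overexpressing mice were on C57BL/6, and the sources used here do not name the promoter that drives the gene in them. Wild-type littermates were the control, with no background named, so strain and genotype cannot be told apart in any of the 3 comparisons. The study asked how triplication of this segment, and Hmgn1 within it, alters transcript levels per cell. The labels call the libraries of a group biological replicates without saying which animals they came from. The p-values below thus rest on the spread between these libraries, which may be technical. Within Ts1Rhr, replicate 3 had Y-linked transcripts that replicates 1 and 2 nearly lacked, so it came at least in part from other animals.

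Macrophages arise from bone marrow progenitors under the growth factor CSF1, whose receptor Csf1r keeps them alive, while GM-CSF acts through the Csf2ra and Csf2rb chains. They take up antibody-coated particles through Fc gamma receptors, which signal through adaptors with ITAM motifs such as Fcer1g and Tyrobp, and they bind microbes and debris through Toll-like, C-type lectin and scavenger receptors. They then kill and digest what they have taken up with lysozyme and the NADPH oxidase, make complement C1q, and secrete proteins that remodel tissue. Several of these genes are not specific to macrophages: Cd53 marks most leukocytes, Fcgr2b is also the inhibitory Fc receptor of B cells, and Lyz2, Itgam, Cybb and Ncf1 are also used by neutrophils. Whole bone marrow holds monocytes and their progenitors as well as B cell progenitors.

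Transcripts of B cell progenitors were present as labelled. The 16 B lineage markers summed to 3337 to 4154 in Ts1Rhr, 3372 to 4690.2 in Hmgn1-overexpressing and 2526 to 3281 in wild-type libraries, in raw FPKM. The check of the altered gene, Hmgn1, gave 126 ± 0.693 raw FPKM in Ts1Rhr, 74.2 ± 2.73 in Hmgn1-overexpressing and 62.0 ± 4.66 in wild-type libraries (SD, n = 3 each). It rose against wild type in Ts1Rhr (limma, adjusted p = 0.00923, and 0.0909 in normalised FPKM) and missed the threshold of 0.05 in the Hmgn1-overexpressing libraries (adjusted p = 0.345). FPKM are not counts, so depth is unknown and no count intervals are given. Between 13023 and 14358 genes per library were above 0. A pair of libraries stood apart. Ts1Rhr replicate 3 had the Y-linked genes Ddx3y and Eif2s3y at 41.8 and 73.6 raw FPKM and Xist at 0.443, while Xist was 94.2 to 193 in the other 8 libraries. Wild-type replicate 1 had 10509.6 raw FPKM of the ribosomal RNA precursor Rn45s, against 325 to 4495 elsewhere.

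Macrophage and monocyte transcripts were abundant in every culture. Lyz2, the lysozyme of macrophages and granulocytes, had the highest mean raw FPKM of all 10878 tested genes, at 18768 over the 9 libraries. Gpnmb ranked 8, Spp1 ranked 14, Lyz1 ranked 36 and Fcer1g ranked 50. Of the 39 members, 19 had a mean of at least 100 raw FPKM, and 3 lay below 5, namely Clec4e, C1qa and Fcgr1, the lowest at 1.68. The median member had 85.4 raw FPKM, against 13.0 for all tested genes. As a share of the summed raw FPKM of a library, the members made up 5.23% ± 0.308 in Ts1Rhr, 6.27% ± 1.77 in Hmgn1-overexpressing and 7.90% ± 0.894 in wild-type libraries (SD, n = 3 each). Lyz2 alone was more than the other 38 in each group: without it the share was 2.08% ± 0.195 in Ts1Rhr, 2.58% ± 0.612 in Hmgn1-overexpressing and 3.46% ± 0.273 in wild-type libraries (SD, n = 3 each). The 16 B lineage markers had 0.808% ± 0.0802 in Ts1Rhr, 0.848% ± 0.190 in Hmgn1-overexpressing and 0.545% ± 0.117 in wild-type libraries (SD, n = 3 each). In bulk RNA of this kind, fewer macrophages and less macrophage RNA per cell cannot be told apart.

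The members varied among libraries more than most genes did. The median SD within groups was 0.58 on the log2 scale of normalised FPKM over the members and 0.35 over all tested genes, and 0.37 and 0.25 on raw FPKM. In normalised FPKM, wild-type replicate 1 was the highest of the 9 libraries for 35 members, and Hmgn1-overexpressing replicate 2 for the other 4. Hmgn1-overexpressing replicate 2 was the highest of its group for all 39 members and replicate 3 the lowest for 36. In Ts1Rhr no such order was seen: replicates 1, 2 and 3 were the highest of the group for 21, 11 and 7 members. The mean log2 normalised FPKM over the 39 members was 6.37, 6.18 and 6.03 in the Ts1Rhr libraries, 6.61, 7.45 and 6.13 in the Hmgn1-overexpressing ones and 7.75, 6.96 and 6.70 in the wild-type ones. All 3 Ts1Rhr means lay below all 3 wild-type means, while the Hmgn1-overexpressing means spanned most of the range of both. On log2 of raw FPKM plus 0.1, the means were 6.39, 6.22 and 6.15 in the Ts1Rhr libraries, 6.60, 6.95 and 6.09 in the Hmgn1-overexpressing ones and 7.40, 6.88 and 7.03 in the wild-type ones.

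**Figure D1:**
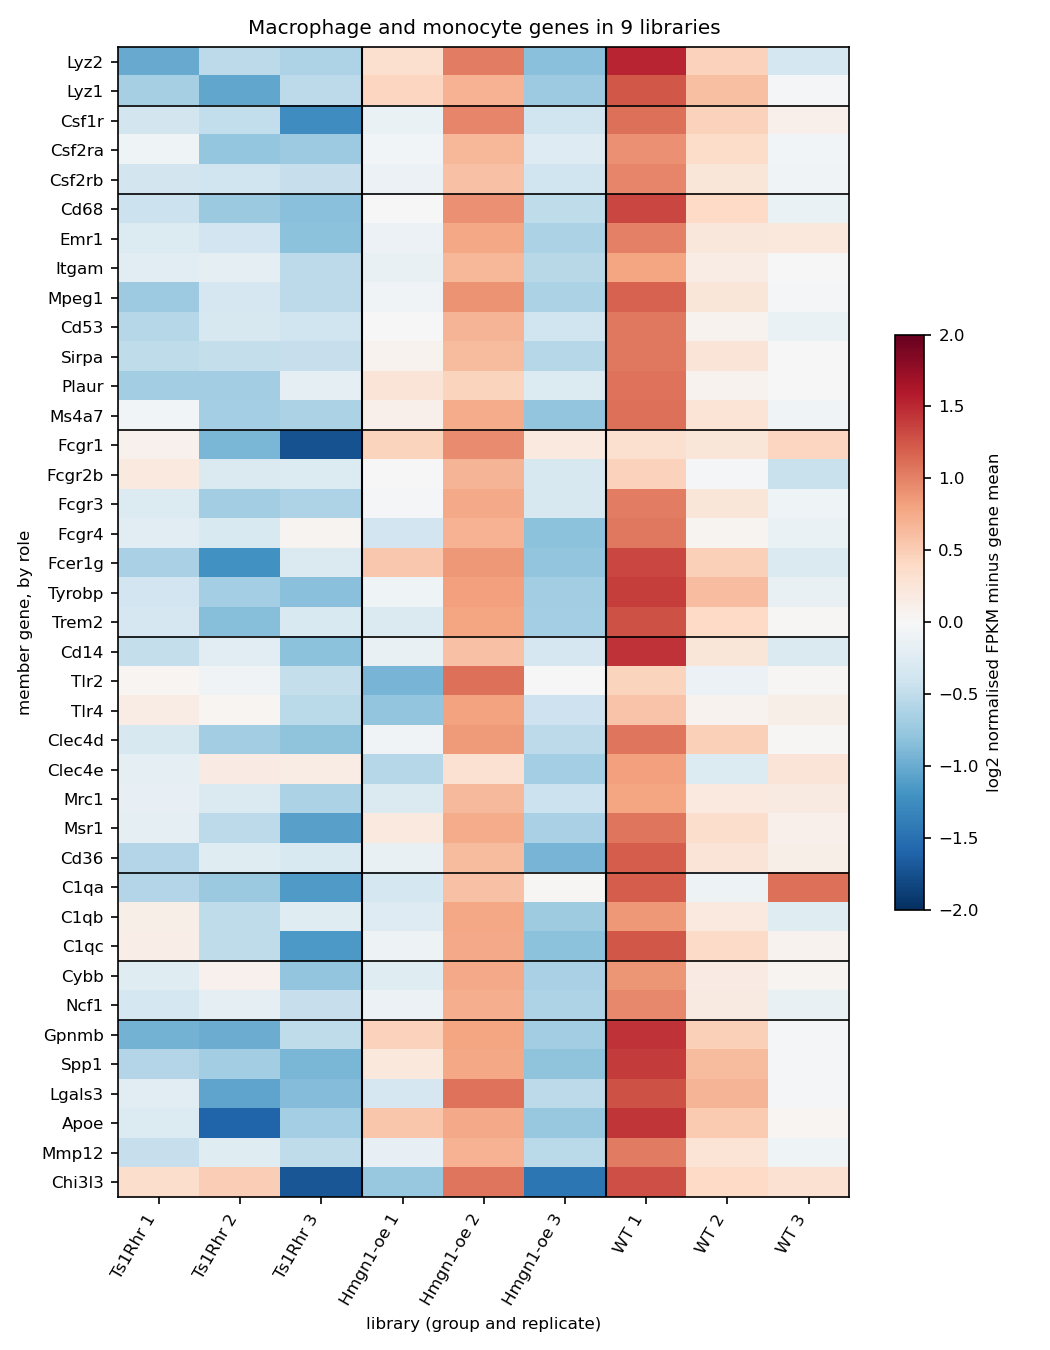
Heat map of the 39 members (rows, grouped by role) in the 9 libraries (columns), as log2 normalised FPKM minus the gene's mean over the libraries. Wild-type replicate 1 is the highest library for 35 members and Hmgn1-overexpressing replicate 2 for the other 4, and most members are below their mean in all 3 Ts1Rhr libraries.

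Every member was lower on average in Ts1Rhr than in wild type, with a median level 0.516 times the wild-type level in normalised FPKM and 0.539 times in raw FPKM. None passed the test in normalised FPKM, and 17 did in raw FPKM. All 39 had a negative log2 fold change in normalised FPKM, against 40.1% of all tested genes, with a median of -0.95 and a range from -1.56 for C1qa to -0.12 for Fcgr2b. The median over all tested genes was 0.12, so the members' median was -1.07 relative to it. In normalised FPKM limma called 0 members, and 26 had an unadjusted p under 0.05. Over all tested genes it called 0.57% in either direction and 0.147% lower, and 6.3% were lower with an unadjusted p under 0.05. For 28 of the 39 members all 3 Ts1Rhr libraries lay below all 3 wild-type libraries, against 8.43% of all tested genes. The authors deposited raw FPKM beside the normalised values, and the sources used here do not say how the normalised ones were made. In raw FPKM the median was -0.89 against 0.01 for all tested genes, and 17 members fell: Lyz1, Csf1r, Csf2ra, Csf2rb, Cd68, Emr1, Sirpa, Plaur, Fcgr3, Tyrobp, Clec4d, Mrc1, Msr1, C1qa, Gpnmb, Spp1 and Lgals3. Of all tested genes 8.85% were called in raw FPKM, 4.56% lower and 4.29% higher. In raw FPKM all 39 were again lower, against 48.9% of all tested genes, 31 had an unadjusted p under 0.05, against 15.5% that were lower with such a p, and 34 did not overlap, against 18.5%. The 17 calls, like those over all tested genes, rest on each of several libraries. None of the 17 was called without Ts1Rhr replicate 2, Ts1Rhr replicate 3, wild-type replicate 1 or wild-type replicate 3. In these fits 3, 1, 1 and 2 of all tested genes were called, against 963 with all libraries. Without Ts1Rhr replicate 1 and wild-type replicate 2, 5 and 11 of the 17 were called, and 293 and 535 of all tested genes. Without wild-type replicate 1, 37 members stayed lower in normalised FPKM with a median of -0.64, Fcgr2b and Clec4e being the exceptions at 0.11 and 0.05, and 28 did not overlap, against 8.76% of all tested genes. Without Ts1Rhr replicate 3, 39 were lower with a median of -0.85, and 29 did not overlap, against 9.75% of all tested genes. Stromal markers differed between the same groups: 9 of them summed to 7.26 to 16.4 raw FPKM in Ts1Rhr, against 70.1 to 106 in wild type. The sums of 14 neutrophil granule genes overlapped, at 88.6 to 211 in Ts1Rhr and 193 to 326 in wild type. The part of either list in the result was not tested. Fold changes of raw FPKM are on the log2(raw FPKM + 0.1) scale, which understates the change of low genes such as Fcgr1 and C1qa. The log2 fold changes in normalised and raw FPKM were -1.26 and -0.67 for Lyz2, and no member differed in direction between the tables.

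**Figure D2:**
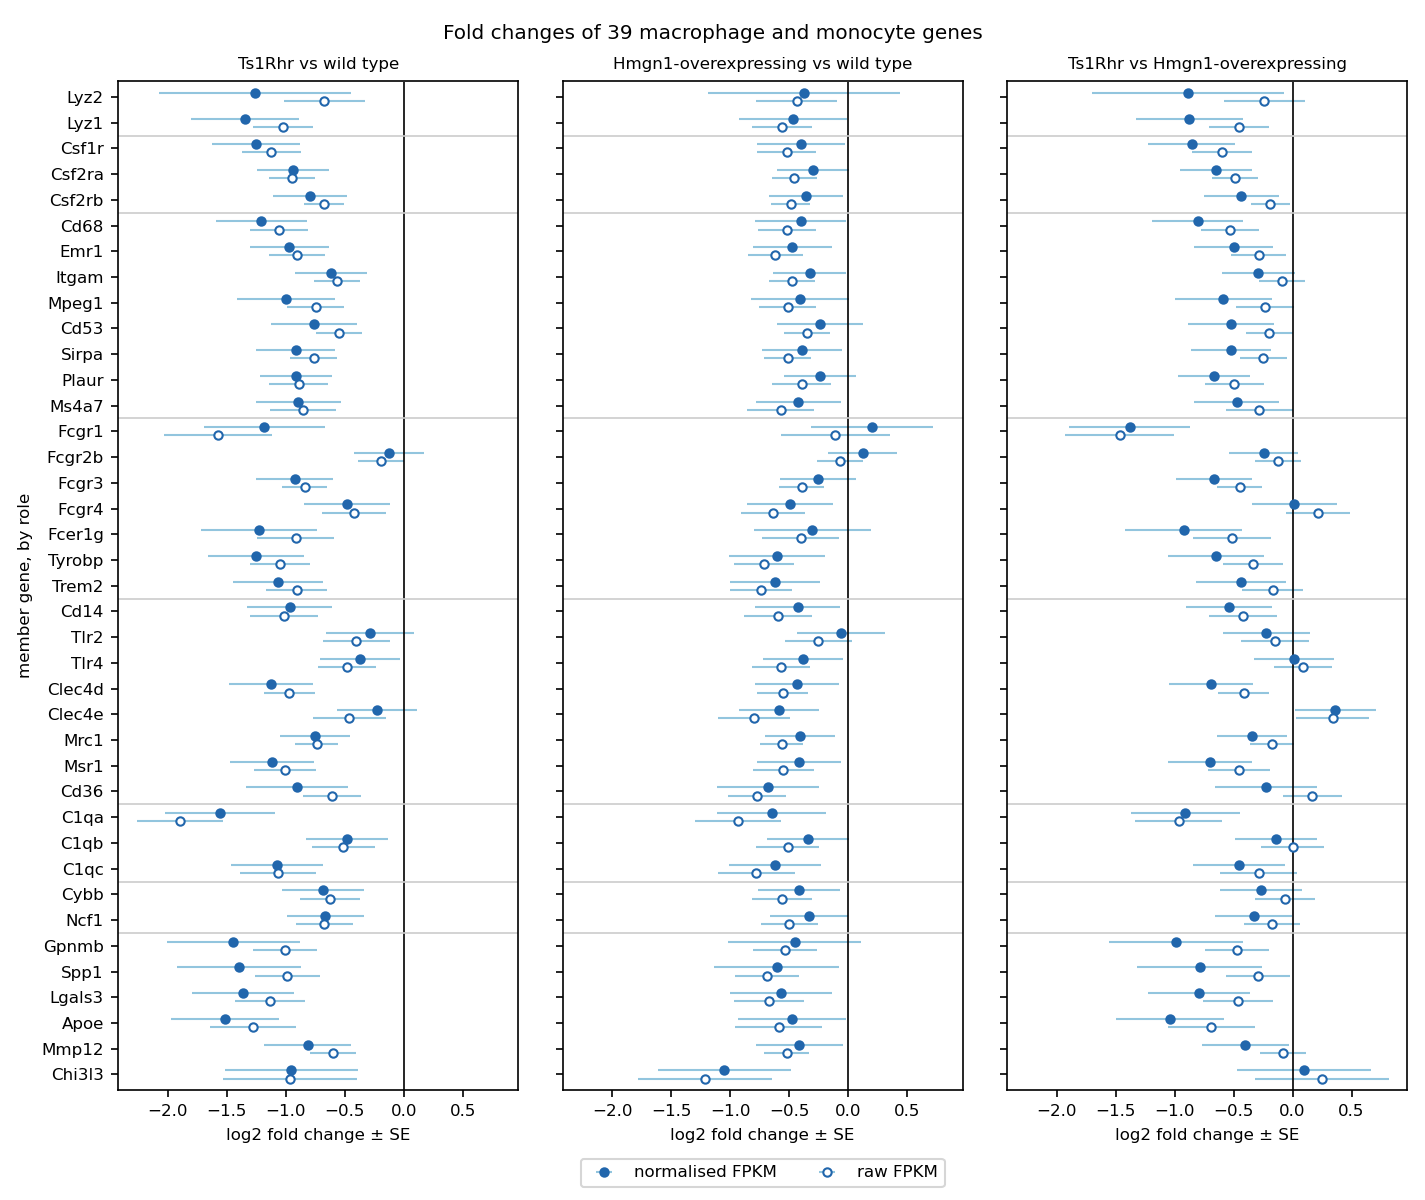
Log2 fold changes (points) with their standard errors (lines) of the 39 members in 3 comparisons, from normalised FPKM (filled) and raw FPKM (open). All 39 points of both kinds lie below 0 in the comparison of Ts1Rhr with wild type. Of the points for Ts1Rhr against Hmgn1-overexpressing libraries, 35 normalised and 33 raw ones lie below 0.

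Lyz2, which digests bacterial cell walls, was the most abundant member. Lyz2 had 9721, 13533 and 12741 normalised FPKM in the Ts1Rhr libraries, 24453, 39540 and 10892 in the Hmgn1-overexpressing ones and 56076, 26719.7 and 15329 in the wild-type ones. The highest Ts1Rhr library was below the lowest wild-type library, and Hmgn1-overexpressing replicate 3 lay among the Ts1Rhr libraries. The log2 fold change of Lyz2 in Ts1Rhr against wild type was -1.26 ± 0.81 (SE), limma adjusted p = 0.395, and in raw FPKM it was -0.67 ± 0.34 (SE), limma adjusted p = 0.206. Lyz1, a close paralog best known from Paneth cells of the gut, had 725, 558 and 794 normalised FPKM in the Ts1Rhr libraries, 1548, 1852 and 695 in the Hmgn1-overexpressing ones and 2713, 1728 and 1125 in the wild-type ones. Every Ts1Rhr library was below every wild-type one. The log2 fold change was -1.35 ± 0.45 (SE), limma adjusted p = 0.139 in normalised and -1.02 ± 0.25 (SE), limma adjusted p = 0.0391 in raw FPKM, where Lyz1 fell. The coding sequences of Lyz1 and Lyz2 are alike enough to share reads, and the sources used here do not say how such reads were assigned, so the split between them is uncertain. The ratio of Lyz2 to Lyz1 in raw FPKM was 17.4, 25.4 and 15.4 in the Ts1Rhr libraries, 13.04, 20.1 and 16.7 in the Hmgn1-overexpressing ones and 17.3, 13.9 and 13.9 in the wild-type ones, with all 3 groups overlapping. Their upstream regions are alike too. Over the 250 bases before the RefSeq start of each gene, 200 positions were identical in a global alignment with 48 mismatches and 4 gap positions. Both are shown in RefSeq's GRCm38.p6 build, read in the direction of the gene, with capitals for the only match to TTGCNNAA, letters of the C/EBP binding motif, which is in Lyz1 on the opposite strand:
Lyz1, chr10:117292869-117293118, minus strand: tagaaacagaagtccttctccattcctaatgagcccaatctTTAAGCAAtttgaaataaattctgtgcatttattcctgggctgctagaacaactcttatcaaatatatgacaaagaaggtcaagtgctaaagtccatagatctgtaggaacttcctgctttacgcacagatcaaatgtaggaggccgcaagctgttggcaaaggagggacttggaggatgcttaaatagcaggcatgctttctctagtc
Lyz2, chr10:117282273-117282522, minus strand: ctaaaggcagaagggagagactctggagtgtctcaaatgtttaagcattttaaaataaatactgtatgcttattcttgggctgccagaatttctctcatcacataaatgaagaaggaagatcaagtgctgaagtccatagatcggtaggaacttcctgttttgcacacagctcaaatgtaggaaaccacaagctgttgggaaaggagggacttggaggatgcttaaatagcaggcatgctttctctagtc
The files use the mm9 build, so these coordinates do not apply to them.

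For all 3 growth factor receptors, every Ts1Rhr library was below every wild-type library in both tables, as for 8.43% of all tested genes in normalised FPKM and 18.5% in raw FPKM. Csf1r, the receptor for CSF1 and interleukin-34, had 106, 96.8 and 57.5 normalised FPKM in the Ts1Rhr libraries, 125, 270.3 and 104 in the Hmgn1-overexpressing ones and 292, 187 and 146 in the wild-type ones. Ts1Rhr and wild type did not overlap, and Hmgn1-overexpressing replicate 2 was close to the highest wild-type library. Csf1r had a log2 fold change of -1.25 ± 0.37 (SE), limma adjusted p = 0.109, in Ts1Rhr against wild type, the smallest adjusted p of the 39 members. In raw FPKM, where it fell, the value was -1.12 ± 0.25 (SE), limma adjusted p = 0.0330. Csf2rb, the beta chain shared by the GM-CSF receptor and other cytokine receptors, had 93.1, 91.8 and 87.2 normalised FPKM in the Ts1Rhr libraries, 111, 182 and 91.5 in the Hmgn1-overexpressing ones and 236, 143 and 115 in the wild-type ones. The Ts1Rhr libraries were close together and below all wild-type libraries, with a log2 fold change of -0.79 ± 0.31 (SE), limma adjusted p = 0.191. In raw FPKM Csf2rb fell by 0.68 on the log2 scale (adjusted p = 0.0381, limma). Reads of Csf2rb may be shared with its paralog Csf2rb2. Csf2ra, the alpha chain of the GM-CSF receptor, had 30.02, 20.1 and 22.7 raw FPKM in the Ts1Rhr libraries, against 54.97, 43.6 and 40.97 in the wild-type ones, again without overlap, and fell with a log2 fold change of -0.94 ± 0.19 (SE), limma adjusted p = 0.0325.

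Of the 8 surface and identity genes, 7 had every Ts1Rhr library below every wild-type one in normalised FPKM, against 8.43% of all tested genes, and the class had a median log2 fold change of -0.91. Mpeg1, a pore-forming protein of phagocytes, had 310.4, 406 and 357 normalised FPKM in the Ts1Rhr libraries, 487, 952 and 329 in the Hmgn1-overexpressing ones and 1166, 609 and 504 in the wild-type ones. All Ts1Rhr libraries were below all wild-type ones, and Hmgn1-overexpressing replicate 3 was within the Ts1Rhr range. The log2 fold change of Mpeg1 in Ts1Rhr was -0.997 ± 0.41 (SE), limma adjusted p = 0.204. Cd53, a tetraspanin of most leukocytes, had 239, 284 and 268 normalised FPKM in the Ts1Rhr libraries, 353, 566 and 269 in the Hmgn1-overexpressing ones and 735, 371 and 324 in the wild-type ones. Its groups were also apart, with a log2 fold change of -0.76 ± 0.37 (SE), limma adjusted p = 0.261. A further 4 genes of this class fell in raw FPKM, where 4.56% of all tested genes were called lower, each without overlap. Cd68, a lysosomal glycoprotein, had 128, 105 and 103 raw FPKM in the Ts1Rhr libraries, against 314, 202 and 196 in the wild-type ones, with a log2 fold change of -1.05 ± 0.25 (SE), limma adjusted p = 0.0357. Emr1 (current symbol Adgre1), an adhesion receptor used as a macrophage marker, had 56.9, 55.6 and 44.1 raw FPKM in the Ts1Rhr libraries, against 113, 78.7 and 103 in the wild-type ones, with a log2 fold change of -0.90 ± 0.23 (SE), limma adjusted p = 0.0429. Both are common markers of macrophages in histology and flow cytometry. Sirpa, the inhibitory receptor that binds Cd47, had 131, 135 and 144 raw FPKM in the Ts1Rhr libraries, against 276, 196 and 229 in the wild-type ones, with a log2 fold change of -0.76 ± 0.20 (SE), limma adjusted p = 0.0427. Plaur, the urokinase receptor, had 26.6, 28.95 and 44.3 raw FPKM in the Ts1Rhr libraries, against 80.95, 47.1 and 57.2 in the wild-type ones, with a log2 fold change of -0.89 ± 0.25 (SE), limma adjusted p = 0.0494; the gap between the groups was narrow. Itgam, the alpha M integrin chain of phagocytes, had a log2 fold change of -0.62 ± 0.31 (SE), limma adjusted p = 0.277, in normalised FPKM, and did not overlap. Ms4a7, a tetraspan membrane protein enriched in macrophages, had -0.89 ± 0.36 (SE), limma adjusted p = 0.195, and Ts1Rhr replicate 1 lay just above the lowest wild-type library.

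The Fc receptors and their adaptors ranged from the member with the smallest difference, Fcgr2b at -0.12, to Tyrobp at -1.25, with a median of -1.06 in normalised FPKM. Fcer1g, the signalling chain of the activating Fc receptors, had 618, 421 and 792 normalised FPKM in the Ts1Rhr libraries, 1417, 1768 and 561 in the Hmgn1-overexpressing ones and 2449, 1354 and 795 in the wild-type ones. The highest Ts1Rhr library was just below the lowest wild-type library, and the log2 fold change was -1.23 ± 0.49 (SE), limma adjusted p = 0.195. Tyrobp, the adaptor of Trem2 and other activating receptors, had 205, 167 and 149 normalised FPKM in the Ts1Rhr libraries, 251, 474 and 166 in the Hmgn1-overexpressing ones and 699, 409 and 241 in the wild-type ones. Ts1Rhr and wild type were apart, with a log2 fold change of -1.25 ± 0.41 (SE), limma adjusted p = 0.133; in raw FPKM Tyrobp fell with -1.05 ± 0.25 (SE), limma adjusted p = 0.0374. Trem2, a lipid-sensing receptor that signals through Tyrobp, did not overlap either and had a log2 fold change of -1.06 ± 0.38 (SE), limma adjusted p = 0.160. Fcgr3, the low-affinity activating receptor for IgG, had 68.8, 53.8 and 61.2 raw FPKM in the Ts1Rhr libraries, against 135, 95.1 and 101 in the wild-type ones. It fell with a log2 fold change of -0.84 ± 0.19 (SE), limma adjusted p = 0.0343, without overlap. Fcgr1, the high-affinity receptor for IgG, was near the lower limit of testing. It averaged 0.775 raw FPKM in Ts1Rhr, below the minimum of 1 for testing, which it met through the other groups. The size of its differences is therefore uncertain. It had 1.63, 0.815 and 0.457 normalised FPKM in the Ts1Rhr libraries, 2.08, 2.94 and 1.76 in the Hmgn1-overexpressing ones and 1.91, 1.81 and 2.05 in the wild-type ones. The Ts1Rhr libraries lay below all others, and the log2 fold changes were -1.18 ± 0.51 (SE), limma adjusted p = 0.220, against wild type and -1.38 ± 0.51 (SE), limma adjusted p = 0.988, against Hmgn1-overexpressing libraries. Fcgr4, another activating receptor, overlapped, with a log2 fold change of -0.48 ± 0.36 (SE), limma adjusted p = 0.468, in Ts1Rhr against wild type. Fcgr2b, the inhibitory receptor, had 22.7, 16.2 and 16.5 normalised FPKM in the Ts1Rhr libraries, 19.96, 31.8 and 15.9 in the Hmgn1-overexpressing ones and 27.3, 19.6 and 14.6 in the wild-type ones. The 3 groups overlapped, and its log2 fold change in Ts1Rhr against wild type was -0.12 ± 0.29 (SE), limma adjusted p = 0.846. Fcgr2b, Fcgr3 and Fcgr4 are related in sequence and could share reads.

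Within each library the ratio of Fcgr2b to Fcgr3 in raw FPKM was 0.296, 0.299 and 0.293 in the Ts1Rhr libraries, 0.260, 0.229 and 0.223 in the Hmgn1-overexpressing ones and 0.182, 0.210 and 0.176 in the wild-type ones. The 3 groups did not overlap, and each Ts1Rhr ratio was above each Hmgn1-overexpressing ratio, which was above each wild-type ratio. Ratios between members were picked after their values were seen and are a description, with no test. B lineage markers, which stand for cells that also use Fcgr2b, summed higher in Ts1Rhr and Hmgn1-overexpressing than in wild-type libraries, and their part in this ratio was not tested. The ratio of Fcer1g to Fcgr3 averaged 11.05 ± 2.84 in Ts1Rhr, 11.5 ± 2.83 in Hmgn1-overexpressing and 11.4 ± 1.06 in wild-type libraries (SD, n = 3 each), and that of Tyrobp to Trem2 averaged 1.46 ± 0.362 in Ts1Rhr, 1.61 ± 0.0804 in Hmgn1-overexpressing and 1.58 ± 0.194 in wild-type libraries (SD, n = 3 each). Both of these ratios overlapped across all 3 groups.

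**Figure D3:**
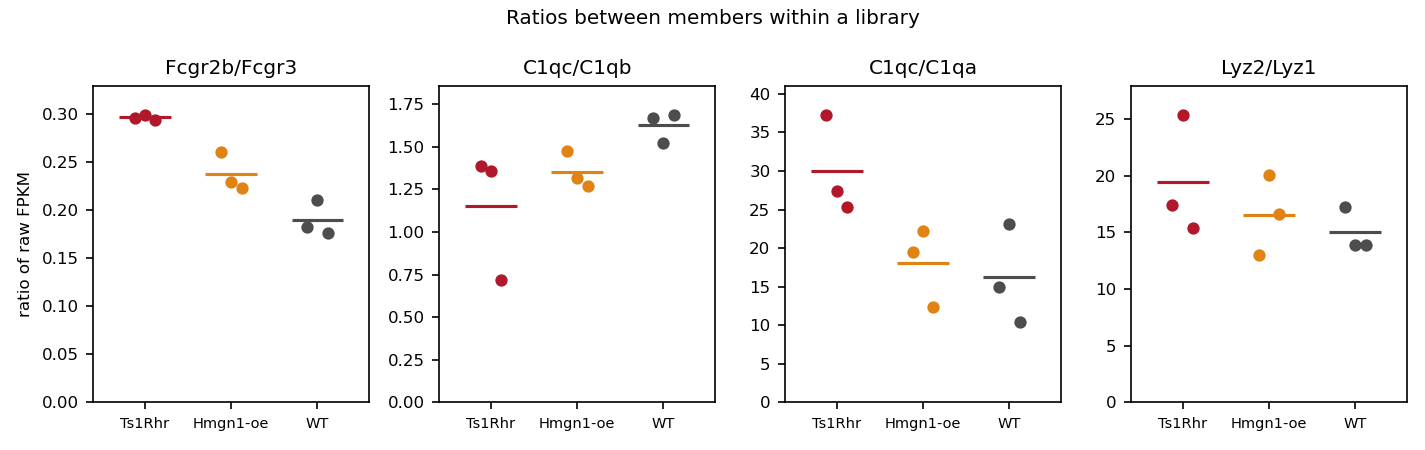
Ratios of raw FPKM between pairs of members within a library, with 1 point per library and a bar at the mean of each group. The ratio of Fcgr2b to Fcgr3 separates the 3 groups, with Ts1Rhr at 0.293 to 0.299 and wild type at 0.176 to 0.210, while that of Lyz2 to Lyz1 overlaps in all 3.

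Among the 8 pattern recognition and scavenger receptors, the Toll-like receptors and Clec4e had the smallest differences in both tables. The largest in normalised FPKM were those of the lectin Clec4d and the scavenger receptor Msr1, and in raw FPKM those of Cd14 and Msr1. Cd36, the class B scavenger receptor, was the most abundant, with 539.9, 689.8 and 655 normalised FPKM in the Ts1Rhr libraries, 733, 1262 and 424 in the Hmgn1-overexpressing ones and 1876, 970.03 and 880.2 in the wild-type ones. Its Ts1Rhr libraries were all below the wild-type ones, and its log2 fold change was -0.90 ± 0.43 (SE), limma adjusted p = 0.259. Clec4d, a C-type lectin that signals through Fcer1g, had 141, 108 and 100.4 normalised FPKM in the Ts1Rhr libraries, 167, 317 and 121 in the Hmgn1-overexpressing ones and 368, 244 and 177 in the wild-type ones. Its groups were apart as well, with a log2 fold change of -1.13 ± 0.36 (SE), limma adjusted p = 0.128; in raw FPKM it fell with -0.97 ± 0.22 (SE), limma adjusted p = 0.0328. Clec4e, its neighbour and partner, was low at 4.62 ± 0.604 normalised FPKM in Ts1Rhr, 3.75 ± 1.51 in Hmgn1-overexpressing and 5.63 ± 2.09 in wild-type libraries (SD, n = 3 each) and overlapped. Its log2 fold change was -0.23 in normalised and -0.46 in raw FPKM. Mrc1, the mannose receptor, had 34.7, 33.9 and 28.8 raw FPKM in the Ts1Rhr libraries, against 59.5, 45.7 and 57.9 in the wild-type ones, and fell with a log2 fold change of -0.74 ± 0.18 (SE), limma adjusted p = 0.0394. Msr1, the class A scavenger receptor, had 91.97, 75.7 and 54.4 raw FPKM in the Ts1Rhr libraries, against 171, 125 and 144 in the wild-type ones, and fell with -1.01 ± 0.26 (SE), limma adjusted p = 0.0427. Neither of the pair overlapped. Cd14, which hands lipopolysaccharide to Tlr4, had a log2 fold change of -0.97 ± 0.36 (SE), limma adjusted p = 0.173, and overlapped in normalised FPKM. Wild-type replicate 1, at 56.4 normalised FPKM, was far above the other wild-type libraries, at 24.4 and 16.9. Without it the log2 fold change was -0.48 ± 0.31 (SE), limma adjusted p = 0.538. In raw FPKM it was -1.02 (limma, adjusted p = 0.0507) with this library and -0.65 without it. Tlr2, a receptor for bacterial lipoproteins, and Tlr4, the lipopolysaccharide receptor, had log2 fold changes of -0.29 and -0.37 (limma, adjusted p = 0.695 and 0.556), and both overlapped.

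C1q is built from equal numbers of A, B and C chains, and the transcripts of the 3 chains were unequal. C1qc had 38.8, 24.97 and 15.9 normalised FPKM in the Ts1Rhr libraries, 32.9, 59.6 and 20.2 in the Hmgn1-overexpressing ones and 83.5, 46.4 and 37.2 in the wild-type ones. Ts1Rhr replicate 1 was within the wild-type range, and the log2 fold change was -1.07 ± 0.39 (SE), limma adjusted p = 0.165. C1qb had 28.6, 18.5 and 22.2 normalised FPKM in the Ts1Rhr libraries, 21.8, 45.1 and 15.997 in the Hmgn1-overexpressing ones and 48.03, 29.9 and 22.3 in the wild-type ones. These groups overlapped, with a log2 fold change of -0.48 ± 0.35 (SE), limma adjusted p = 0.452. C1qa was far lower, with 0.977, 0.915 and 0.683 raw FPKM in the Ts1Rhr libraries, 1.78, 1.95 and 1.55 in the Hmgn1-overexpressing ones and 4.66, 1.96 and 4.41 in the wild-type ones. Its 3 groups did not overlap in raw FPKM, with Ts1Rhr lowest and wild type highest, though the lowest wild-type library barely exceeded the highest Hmgn1-overexpressing one. It fell in Ts1Rhr against wild type with -1.90 ± 0.37 (SE), limma adjusted p = 0.0311, the largest difference of the 39 members in either table. C1qa averaged 0.858 raw FPKM in Ts1Rhr, below the minimum of 1 for testing, which it met through the other groups. The size of its difference is therefore uncertain. The genes of the chains lie side by side on the chromosome, but the ratio of C1qc to C1qa was 37.3, 27.4 and 25.3 in the Ts1Rhr libraries, 19.6, 22.2 and 12.3 in the Hmgn1-overexpressing ones and 14.96, 23.2 and 10.5 in the wild-type ones. That ratio was above all others in each Ts1Rhr library, where it rests on C1qa values below that minimum. The ratio of C1qc to C1qb was 1.39, 1.36 and 0.716 in the Ts1Rhr libraries, 1.48, 1.31 and 1.27 in the Hmgn1-overexpressing ones and 1.67, 1.52 and 1.69 in the wild-type ones, all Ts1Rhr and Hmgn1-overexpressing libraries being below all wild-type ones.

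The 2 NADPH oxidase members had the smallest median difference of the 8 classes, at -0.68 in normalised FPKM. Cybb, the catalytic membrane subunit, had 57.8, 72.3 and 39.4 normalised FPKM in the Ts1Rhr libraries, 57.6, 115 and 43.6 in the Hmgn1-overexpressing ones and 126, 76.5 and 71.3 in the wild-type ones. Ts1Rhr replicate 2 lay above the lowest wild-type library, and the log2 fold change was -0.69 ± 0.35 (SE), limma adjusted p = 0.283. Ncf1, the cytosolic subunit that organises the complex, had 25.6, 28.6 and 23.6 normalised FPKM in the Ts1Rhr libraries, 29.96, 54.1 and 21.2 in the Hmgn1-overexpressing ones and 63.3, 36.9 and 29.4 in the wild-type ones. Its groups were just apart, with a log2 fold change of -0.66 ± 0.33 (SE), limma adjusted p = 0.274. The 5 other subunits tested were all lower too, with a median of -0.45 in normalised FPKM, and limma called none. Cyba, which pairs with Cybb in the membrane, averaged 58.9 ± 15.8 in Ts1Rhr, 85.4 ± 36.96 in Hmgn1-overexpressing and 117 ± 54.1 normalised FPKM in wild-type libraries (SD, n = 3 each), with a log2 fold change of -0.93 in Ts1Rhr (limma, adjusted p = 0.183). Rac1, a small GTPase of most cells, averaged 148 ± 25.6 in Ts1Rhr, 183 ± 58.1 in Hmgn1-overexpressing and 181 ± 57.8 normalised FPKM in wild-type libraries, with -0.25 (limma, adjusted p = 0.673).

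The secreted and tissue remodelling genes had the largest median difference of the 8 classes, at -1.38 in normalised FPKM. In raw FPKM the largest was that of C1q, at -1.07. Gpnmb, a transmembrane glycoprotein of macrophages and osteoclasts whose outer part is shed, had 2011, 1957 and 2735 normalised FPKM in the Ts1Rhr libraries, 5309, 6664 and 2382 in the Hmgn1-overexpressing ones and 10535, 5409 and 3799 in the wild-type ones. All Ts1Rhr libraries lay below all wild-type ones. Its log2 fold change was -1.44 ± 0.57 (SE), limma adjusted p = 0.188, and in raw FPKM it fell with -1.01 ± 0.27 (SE), limma adjusted p = 0.0463. Spp1, which encodes osteopontin, had 1798, 1659.8 and 1433 normalised FPKM in the Ts1Rhr libraries, 3109, 4612 and 1537 in the Hmgn1-overexpressing ones and 7064, 4157 and 2648 in the wild-type ones. Here too the groups did not overlap, with a log2 fold change of -1.39 ± 0.53 (SE), limma adjusted p = 0.173. In raw FPKM Spp1 fell with -0.99 ± 0.27 (SE), limma adjusted p = 0.0481. Lgals3, a galectin, had 348, 187 and 223 raw FPKM in the Ts1Rhr libraries, against 628, 521 and 471 in the wild-type ones. It fell with -1.13 ± 0.30 (SE), limma adjusted p = 0.0445, without overlap. Apoe, the apolipoprotein that carries cholesterol out of macrophages, had 337, 135 and 254 normalised FPKM in the Ts1Rhr libraries, against 1097, 586 and 421 in the wild-type ones. Its log2 fold change of -1.52 ± 0.46 (SE), limma adjusted p = 0.114, missed the threshold, without overlap. Mmp12, the macrophage elastase, did not overlap and had a log2 fold change of -0.81 ± 0.37 (SE), limma adjusted p = 0.233. Chi3l3 (current symbol Chil3), a chitinase-like protein of alternatively activated macrophages, varied within every group. It had 34.8, 38.3 and 8.31 normalised FPKM in the Ts1Rhr libraries, 16.1, 56.8 and 9.95 in the Hmgn1-overexpressing ones and 66.4, 35.99 and 33.7 in the wild-type ones. Ts1Rhr replicates 1 and 2 were within the wild-type range and replicate 3 was well below it, giving a log2 fold change of -0.95 ± 0.57 (SE), limma adjusted p = 0.353. Without Ts1Rhr replicate 3 the value was -0.24 ± 0.52 (SE), limma adjusted p = 0.831, and in raw FPKM it was -0.96 with this library and -0.31 without it. Its reads may be shared with the paralog Chi3l4.

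**Figure D4:**
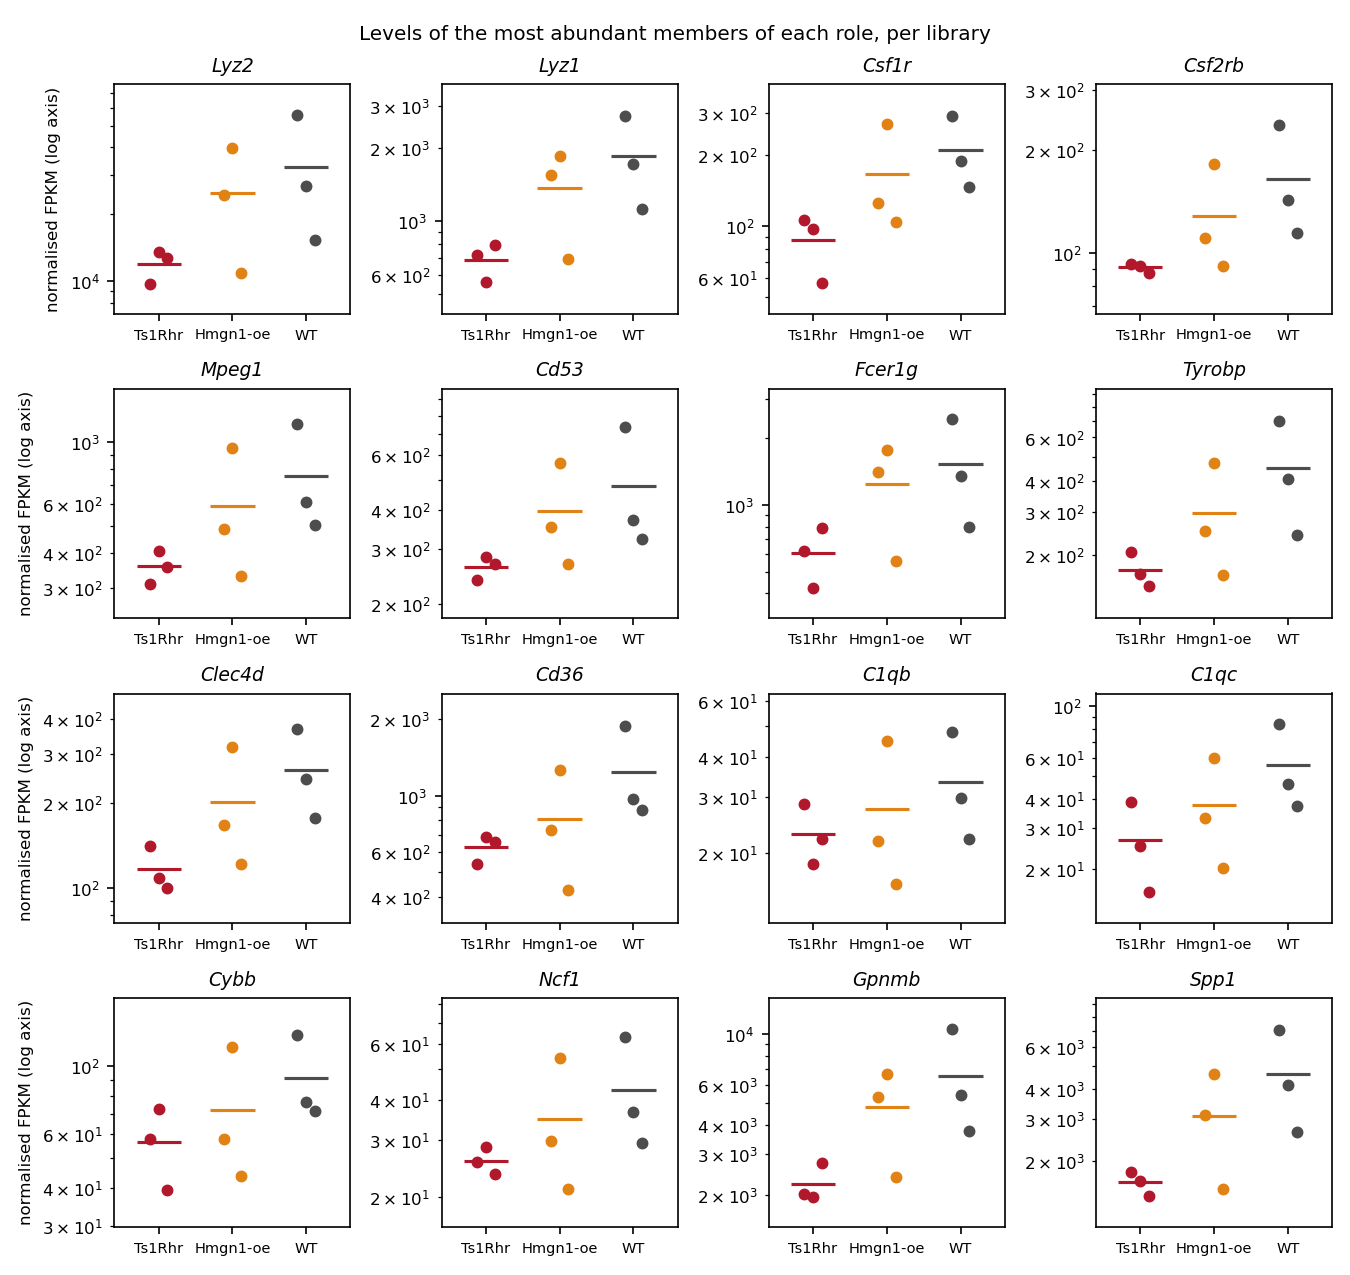
Normalised FPKM (log axis) of the 2 most abundant members of each role in the 9 libraries, with 1 point per library and a bar at the arithmetic mean of each group. Ts1Rhr points lie below all wild-type points in 13 of the 16 panels, and the Hmgn1-overexpressing points spread across both ranges.

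Hmgn1-overexpressing libraries were compared with the same 3 wild-type libraries. Of the 39 members, 37 were lower on average in normalised FPKM, against 27.3% of all tested genes, with a median log2 fold change of -0.41 against 0.21 for all tested genes, or -0.62 relative to them. Fcgr1 and Fcgr2b had positive values there, 0.20 ± 0.51 (SE), limma adjusted p = 0.896 and 0.12 ± 0.29 (SE), limma adjusted p = 0.889; in raw FPKM they were -0.11 and -0.07. limma called 0 members, against 0.0919% of all tested genes, and 0 members had an unadjusted p under 0.05, against 0.837% of all tested genes that were lower with such a p. No member's groups were apart, against 0.8% of all tested genes that were lower without overlap. In raw FPKM all 39 were lower, against 48.3% of all tested genes, with a median of -0.55. limma called 0 of them, against 0.0368% of all tested genes, and 19 had an unadjusted p under 0.05, against 7.39% that were lower with such a p. In raw FPKM 7 did not overlap, against 8.25% of all tested genes. Those 7 were Lyz1, Csf2ra, Csf2rb, Msr1, C1qa, C1qc and Spp1, named after their values were seen. By class the median in normalised FPKM lay between -0.62 for C1q and -0.30 for the Fc receptors and adaptors. The member with the most negative value was Chi3l3, at -1.05 ± 0.57 (SE), limma adjusted p = 0.476. The size of this difference rested on single libraries. The median was -0.10 without wild-type replicate 1, with 30 members lower, -0.11 without Hmgn1-overexpressing replicate 3, with 34 lower, and -0.77 without Hmgn1-overexpressing replicate 2, with 39 lower.

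Ts1Rhr was also set directly against Hmgn1-overexpressing libraries, in the same fit of all 9 libraries, as a test of the difference between the 2 mutant groups. In normalised FPKM 35 members were lower in Ts1Rhr, against 62.5% of all tested genes, with a median log2 fold change of -0.52 against -0.09 for all tested genes. limma called 0 members and 0.0% of all tested genes, while 5 members were lower with an unadjusted p under 0.05, against 3.5% of all tested genes. Those 5 were Fcgr1, Csf1r, Apoe, Plaur and Csf2ra, all lower in Ts1Rhr and named after their values were seen. Their log2 fold changes were -1.38, -0.86, -1.04, -0.67 and -0.65 (limma, adjusted p = 0.988 for each). Only Fcgr1 and C1qa did not overlap, against 6.6% of all tested genes lower without overlap. In Ts1Rhr they averaged 0.775 and 0.858 raw FPKM, below the minimum of 1 for testing. Both met it through the other groups, so the size of their differences is uncertain. The 4 members with a positive value were Clec4e at 0.36, Chi3l3 at 0.10, Fcgr4 at 0.01 and Tlr4 at 0.01. Without Ts1Rhr replicate 3, Chi3l3 was at 0.81 and Fcgr4 at -0.09. In raw FPKM 33 were lower, against 49.7% of all tested genes, with a median of -0.28. limma called 0 members and 0.0% of all tested genes there, 5 members were lower with an unadjusted p under 0.05, against 4.95% of all tested genes, and 2 did not overlap, against 5.99% of all tested genes. Without Hmgn1-overexpressing replicate 2 the median in normalised FPKM was -0.23, with 28 members lower, and without replicate 3 it was -0.83, with 38 lower. In raw FPKM the median without replicate 2 was -0.06, with 23 lower. A p above the threshold does not show that the members were equal in the 2 mutant groups.

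Other genes of the macrophage pathways were listed by function. Of 12 macrophage transcription factors, 11 were lower in Ts1Rhr than in wild type in both tables, with a median of -0.80 in normalised FPKM and none called. In raw FPKM 5 fell. Sfpi1, which encodes PU.1, the factor that directs myeloid development, had 30.5, 21.4 and 23.8 raw FPKM in the Ts1Rhr libraries, against 66.3, 47.2 and 43.2 in the wild-type ones, without overlap (log2 fold change -1.04, limma adjusted p = 0.0460). Cebpb, a C/EBP factor of macrophages, averaged 8.07 ± 0.395 in Ts1Rhr, 15.5 ± 6.20 in Hmgn1-overexpressing and 18.6 ± 3.37 raw FPKM in wild-type libraries (SD, n = 3 each), with -1.18 in Ts1Rhr (limma, adjusted p = 0.0365). Klf4 and Tfec had log2 fold changes of -1.13 and -0.89 (limma, adjusted p = 0.0333 and 0.0467). Irf8, which B cell progenitors also use, was the exception, with 0.29 (limma, adjusted p = 0.148). Of the ligands of the growth factor receptors only Csf1 was tested. It fell in raw FPKM, to 8.26, 7.68 and 11.7 raw FPKM in the Ts1Rhr libraries, against 14.7, 16.9 and 14.4 in the wild-type ones, with a log2 fold change of -0.75 (limma, adjusted p = 0.0386). Csf2 and Il3 were listed at 0 in all 9 libraries. Of 12 ITAM signalling genes, 8 were lower, none was called in either table and the median was -0.15. Several also serve the B cell receptor, and Syk, the kinase of both pathways, averaged 118 ± 4.93 in Ts1Rhr, 149.99 ± 24.2 in Hmgn1-overexpressing and 133 ± 24.2 normalised FPKM in wild-type libraries. Of 15 Toll-like receptor signalling genes, 12 were lower in normalised and 14 in raw FPKM, with medians of -0.33 and -0.42. Only Tlr1, which pairs with Tlr2, fell in raw FPKM (-0.91, limma adjusted p = 0.0464). Of 7 osteoclast genes, 5 were lower in normalised and 6 in raw FPKM, and Ctsk, the bone-degrading cathepsin, fell in raw FPKM (-1.13, limma adjusted p = 0.0360). In Hmgn1-overexpressing libraries against wild type, 11 of the 12 transcription factors were lower in raw FPKM, with a median of -0.53 and none called. Between Ts1Rhr and Hmgn1-overexpressing libraries no gene of these lists was called in either table.

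Since PU.1, C/EBP and AP-1 factors act on many macrophage genes, their letters were searched in the 250 bases before each RefSeq start, on both strands. A gene with several starts counted if any of its windows held a match. RefSeq's GRCm38.p6 promoter table held 30 of the 39 members and 27025 genes in all. The PU.1 letters GAGGAAGT were in 4 members, or 13.3% of the 30, and in 2.79% of all genes. The AP-1 letters TGANTCA were in 6 members, or 20%, and in 7.82% of all genes, and the C/EBP letters TTGCNNAA were in 7, or 23.3%, and in 10.8% of all genes. None of the PU.1 matches overlapped a match to either of the other letters. The 4 members with PU.1 letters are C1qc, Fcgr4, Mmp12 and Spp1, shown here because they span 3 classes and include Spp1, which fell in raw FPKM. Mmp12 and Spp1 each have another RefSeq start, not shown, whose window lacks these letters. Each sequence runs in the direction of its gene and ends at the base before the start, with capitals for the match, which is on the opposite strand in all but Spp1 and there appears as ACTTCCTC:
C1qc, chr4:136892915-136893164, minus strand: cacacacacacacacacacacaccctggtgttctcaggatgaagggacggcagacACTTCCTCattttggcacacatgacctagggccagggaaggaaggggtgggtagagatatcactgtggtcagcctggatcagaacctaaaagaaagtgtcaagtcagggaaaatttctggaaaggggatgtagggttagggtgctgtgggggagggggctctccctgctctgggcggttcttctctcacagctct
Fcgr4, chr1:171018676-171018925, plus strand: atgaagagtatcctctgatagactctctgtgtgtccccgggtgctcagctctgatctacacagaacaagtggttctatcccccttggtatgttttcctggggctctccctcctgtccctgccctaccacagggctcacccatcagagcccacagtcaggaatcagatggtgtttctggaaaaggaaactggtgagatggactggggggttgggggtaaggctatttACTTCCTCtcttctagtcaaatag
Mmp12, chr9:7344147-7344396, plus strand: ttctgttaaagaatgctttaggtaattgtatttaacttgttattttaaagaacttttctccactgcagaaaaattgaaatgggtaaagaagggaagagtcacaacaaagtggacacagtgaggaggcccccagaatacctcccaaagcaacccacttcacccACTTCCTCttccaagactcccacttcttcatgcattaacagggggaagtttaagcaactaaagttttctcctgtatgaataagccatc
Spp1, chr5:104434861-104435110, plus strand: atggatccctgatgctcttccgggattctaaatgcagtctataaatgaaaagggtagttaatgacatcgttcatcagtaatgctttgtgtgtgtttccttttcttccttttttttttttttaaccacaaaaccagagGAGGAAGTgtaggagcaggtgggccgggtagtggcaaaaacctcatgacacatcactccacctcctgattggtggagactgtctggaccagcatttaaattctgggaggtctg
The matches begin at positions -195, -24, -88 and -113 from the start. In Ts1Rhr against wild type these 4 members had log2 fold changes of -1.07, -0.48, -0.81 and -1.39 in normalised FPKM, set against -0.95 for the median member. A match is a description of the letters and not a bound site, and its absence says only that these letters are not in the window.

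Markers of other cell types were listed as well, and their part in the members' differences was not tested. All 11 tested neutrophil granule genes were lower in Ts1Rhr than in wild type, with a median of -0.70 in normalised FPKM and none called in either table. The 14 listed genes had a summed raw FPKM of 88.6 to 211 in Ts1Rhr, 79.8 to 266 in Hmgn1-overexpressing and 193 to 326 in wild-type libraries. The members' sum was 22965 to 25971 in Ts1Rhr, 20490.3 to 40737 in Hmgn1-overexpressing and 36046 to 52764 in wild-type libraries. The most abundant, S100a9, a calcium-binding protein that monocytes also make, averaged 58.4 ± 25.6 in Ts1Rhr, 60.3 ± 44.6 in Hmgn1-overexpressing and 77.3 ± 20.2 raw FPKM in wild-type libraries (SD, n = 3 each), and its groups overlapped. Of 5 tested dendritic cell markers 4 were lower, with a median of -0.25 and none called. The 9 listed had a summed raw FPKM of 38.1 to 40.2 in Ts1Rhr, 40.8 to 57.4 in Hmgn1-overexpressing and 52.3 to 62.8 in wild-type libraries. Stromal markers showed the largest median difference of the lists tested. The 5 tested genes, Col1a2, Sparc, Bgn, Fn1 and Lox, all fell in Ts1Rhr in both tables, with a median of -2.77 in normalised FPKM. Of all tested genes 0.147% were called lower in normalised and 4.56% in raw FPKM. In Hmgn1-overexpressing libraries all but Fn1 fell in normalised FPKM and only Sparc and Lox in raw FPKM. There 0.0919% and 0.0368% of all tested genes were called in either direction. Col1a2 averaged 0.853 raw FPKM in Ts1Rhr and 0.758 in Hmgn1-overexpressing libraries, below the minimum of 1 for testing. It met that minimum through wild type, so the size of its difference is uncertain. Bgn, a matrix proteoglycan, had 7.23, 1.81 and 2.495 normalised FPKM in the Ts1Rhr libraries, 5.94, 1.38 and 5.10 in the Hmgn1-overexpressing ones and 31.6, 39.2 and 22.7 in the wild-type ones, with wild type far above both mutant groups. The 9 stromal markers had a summed raw FPKM of 7.26 to 16.4 in Ts1Rhr, 5.42 to 15.4 in Hmgn1-overexpressing and 70.1 to 106 in wild-type libraries. Sums over lists of different size do not measure shares of cells. Most B lineage markers were higher. In Ts1Rhr against wild type 12 of 16 were higher in normalised FPKM, with a median of 0.27 and none called, and in raw FPKM Vpreb1, Vpreb2, Igll1, Rag2 and Dntt rose, 5 of 16 against 4.29% of all tested genes called higher. The most abundant, Cd24a, had log2 fold changes of 0.30 in normalised and 0.62 in raw FPKM. Vpreb3, the next, had -0.29 and 0.006, and neither gene was called. Dntt, the terminal transferase of early B cell progenitors, averaged 133 ± 56.9 in Ts1Rhr, 129 ± 29.3 in Hmgn1-overexpressing and 50.7 ± 6.71 raw FPKM in wild-type libraries, a log2 fold change of 1.32 in Ts1Rhr (limma, adjusted p = 0.0320). T and NK cell, mast cell and basophil, and erythroid markers were below 1 FPKM on average and not tested. Cma1, Tpsb2, Hbb-b1 and Hba-a1 were listed at 0 in all 9 libraries, and the sums of these 3 lists reached at most 3.85, 4.67 and 0.512 raw FPKM.

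**Figure D5:**
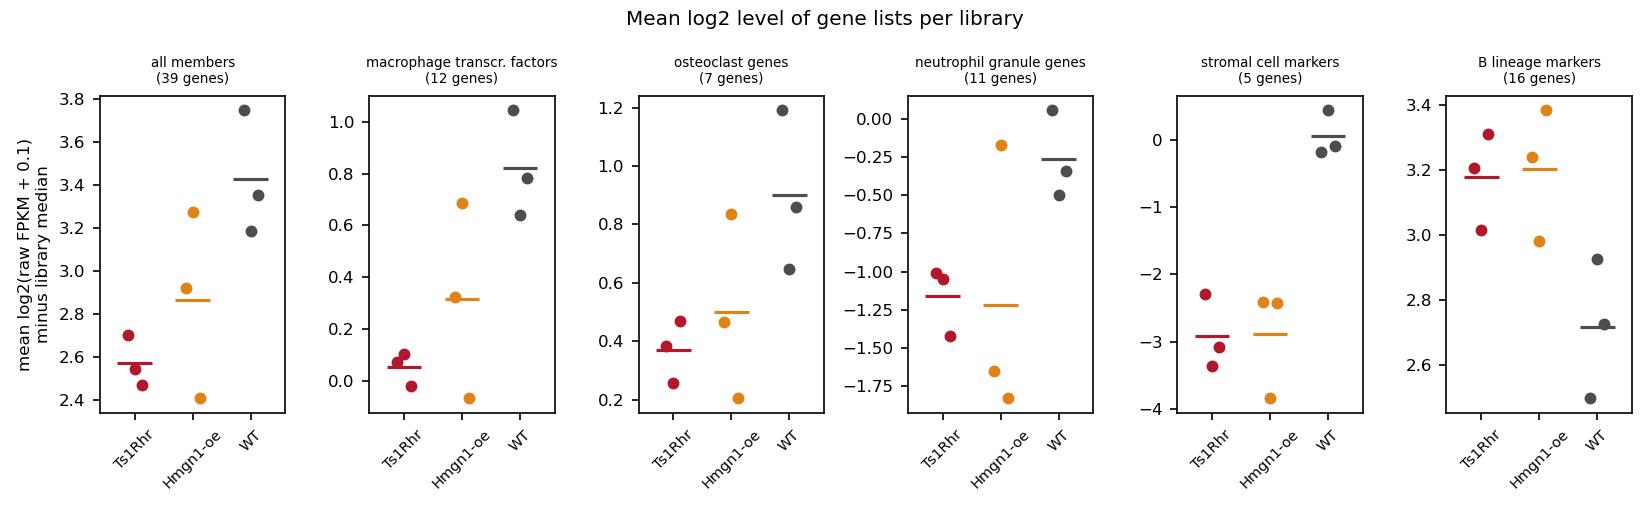
Mean log2(raw FPKM + 0.1) of 6 gene lists minus the library's median over all tested genes, with 1 point per library and a bar at the mean of each group. The members, macrophage transcription factors, osteoclast genes, neutrophil granule genes and stromal markers all lie lower in every Ts1Rhr than in every wild-type library. The B lineage markers lie higher, and the Hmgn1-overexpressing points overlap wild type for the members.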

How the data were processed

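RNA of 9 pro-B culture libraries was measured, 3 per group. The authors deposited a table of raw FPKM and a table of normalised FPKM values, each with 23398 rows. Per the submitters' processing notes, HISAT and Cufflinks 2.0.0 were used with the mm9 build; the sources used here do not say which tool did which step or how the normalised values were made. FPKM hold no counts, so depth is unknown.

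The 92 spike-in rows and 27 rows whose names had turned into dates were left out, and rows averaging at least 1 raw FPKM were tested. Log2 normalised FPKM were compared with limma 3.58.1 in R 4.3.3, with a trended prior and all 9 libraries in 1 fit, two-sided, with Benjamini-Hochberg adjustment over all 10878 rows and a threshold of 0.05. Raw FPKM were compared in the same way as log2(raw FPKM + 0.1). Group was the only term. The fit was tested on simulated data with noise independent between genes. Those data held no shift shared by many genes of a library, so the test does not cover such shifts.

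Values of single libraries are given for the 2 members of each class with the highest mean raw FPKM, for every member called in any comparison, and for a few others named after their values were seen. The members and gene lists were chosen with earlier results of these data known. PU.1 was matched as Sfpi1 through a RefSeq synonym, and Trac of the T and NK cell list was not analysed here. Some genes of the other lists are counted with their list and are not reported here by name. Promoter sequences come from RefSeq, GRCm38.p6. Other pseudocounts, filters, scalings, fits and sets of libraries were tried, and their effect closes the text.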

Additional observations from a re-analysis of the deposited data

How the results depend on the processing

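The negative median log2 fold change of the 39 members kept its direction in all 3 comparisons under every setting tried. Leaving out 1 replicate at a time gave medians of -1.15 to -0.64 for Ts1Rhr against wild type, -0.77 to -0.10 for Hmgn1-overexpressing against wild type and -0.83 to -0.23 for Ts1Rhr against Hmgn1-overexpressing libraries, in normalised FPKM. With raw FPKM and a replicate left out, chosen after seeing the data, they were -0.97 to -0.68, -0.74 to -0.31 and -0.55 to -0.06. The number of members called lower in Ts1Rhr against wild type was 0 in normalised FPKM, 17 in raw FPKM, 15 with libraries shifted to the same median, 15 with raw FPKM rescaled without the members, and 0 to 0 without 1 replicate at a time. In raw FPKM it was 0 to 26 without 1 replicate at a time, while 1 to 1276 of all tested genes were called. Of all tested genes 62 were called, against 963 in raw FPKM, 693 with shifted libraries, 846 with rescaled raw FPKM, 267 with only these 2 groups in the fit, 119 with the block and 8 with no filter on low values. Same-numbered libraries of different groups deviated together in 2 of 9 pairs (r above 0.1, range -0.132 to 0.156). Other-numbered libraries did so in 5 of 18 pairs (range -0.2835 to 0.2108). These values cannot show whether equal numbers share a litter or day. With the replicate number as a block, 1 member, Csf1r, was called (limma, adjusted p = 0.0493). For single members in Ts1Rhr against Hmgn1-overexpressing libraries the log2 fold change turned positive in raw FPKM for C1qb (0.000415) and Cd36 (0.166), in rescaled raw FPKM for C1qb (0.0402) and Cd36 (0.205), and with 1 spike-in factor per library for Cd36 (0.00467). Without 1 replicate at a time it was -0.465 to 0.282 for C1qb (0.00718 without Ts1Rhr replicate 2), -0.622 to 0.165 for Cd36, -0.571 to 0.128 for Cybb and -0.64 to 0.0367 for Ncf1, the highest of each being without Hmgn1-overexpressing replicate 2. In Hmgn1-overexpressing against wild-type libraries it was -0.532 to 0.122 for Cd53, -0.701 to 0.196 for Fcer1g and -0.820 to 0.130 for Lyz2 without 1 replicate at a time, positive without Hmgn1-overexpressing replicate 3 (0.00464, 0.196 and 0.130) and without wild-type replicate 1 (0.122, 0.111 and 0.115). None of these values was called, and the cause was not tested. The depth of the libraries is unknown, and 3 libraries per group limit the precision: an exact permutation test of 3 against 3 cannot give a p below 0.1.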
